A study of Homo sapiens with 15 samples.

Results

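RNA polymerase II (RNAPII) was present at the start of 223 genes whose region held little nuclear RNA. These members are the gene regions with an RNAPII ChIP score of 8 or more at the transcription start and a mean nuclear RNA level under 5 CPM (counts on a per-million scale) in 2 libraries, out of 14432 gene regions in all. The score is the number of reads at the start per 10000000 reads of the library, minus the same for the input. Of the 5785 starts that reached the score, the other 5562 had 5 CPM or more and are called the transcribed promoters here. A further 5582 regions were under both limits and are called the silent regions. That name is shorthand for being under both limits and does not mean a lack of transcription. TIGD3, for example, was among them with an RNAPII score of 7.99 and 2.85 CPM. The members were chosen by their RNAPII and nuclear RNA values, so these are given as a description, with no test.

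The cells of all 15 samples were HEK293T T-REx, an established human embryonic kidney line made for transgenes under tetracycline control. The 2 nuclear RNA libraries and the single ChIP libraries of RNAPII, EZH2, H3K27me3, H3K4me3 and input came from cells with no transgene. The 2 PHC1 PAR-CLIP libraries and the 2 PHC1 ChIP libraries came from cells with a PHC1 transgene, pulled down on streptavidin beads, and the 2 PHC1 dFCS ChIP libraries from cells with a PHC1-dFCS transgene, whose name says that the FCS part is missing. For RNAPII PAR-CLIP, 4-thiouridine (4SU) was fed for 1 library and 6-thioguanosine (6SG) for the other, both without a transgene, and every PAR-CLIP culture took up 100 uM of its nucleoside. Fixation for ChIP was in 1% formaldehyde for 6 minutes.

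RNAPII often loads at a promoter and stops a short way into the gene, and it can also start in both directions from 1 open promoter. The product of the second direction is usually short and quickly degraded, so polymerase and RNA can part company at such a start. Genes that answer stress or growth signals are a textbook case of paused polymerase at rest. H3K4me3 marks the nucleosomes at active or poised starts. PHC1 is a subunit of Polycomb repressive complex 1 (PRC1), which represses developmental genes together with PRC2, whose EZH2 subunit places H3K27me3. PAR-CLIP maps RNA that a protein touches, by crosslinking it in light through a photoreactive nucleoside. The question asked of the members is which genes they are and whether PHC1 touches their starts or their RNA.

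The DNA in front of a few members shows the kinds of promoter in the group. For a member whose start lies back to back with that of another gene, the bases between both starts are given. For a member with no such neighbour in the table, the 250 bases before the start are given. All are from RefSeq on build GRCh38.p14 and read 5′ to 3′ on the member's strand, with the start just after the last base. RefSeq can place a start elsewhere than the deposited hg19 regions do, so these stretches differ in length from the distances given later. Capitals mark the motifs searched on both strands, which are spelled out with their shares below. They are the TATA box, the box named CCAAT, the GC box and the CArG box, the ETS, AP-1 and NRF1 sites, the amino acid response element, and the cyclic AMP response element with its half-site. STK4-DT (chr20:44966459-44966511, minus strand), UCHL1-DT (chr4:41256728-41256927, minus), H2AZ1-DT (chr4:99950276-99950493, plus) and BTG2-DT (chr1:203305326-203305518, minus) are lncRNA genes that share a promoter with the coding gene in their name.
STK4-DT: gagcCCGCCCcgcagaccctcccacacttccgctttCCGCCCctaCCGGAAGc
UCHL1-DT: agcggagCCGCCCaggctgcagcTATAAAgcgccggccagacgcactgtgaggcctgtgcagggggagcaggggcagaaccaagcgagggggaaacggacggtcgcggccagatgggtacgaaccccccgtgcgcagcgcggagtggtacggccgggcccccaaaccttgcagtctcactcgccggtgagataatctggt
H2AZ1-DT: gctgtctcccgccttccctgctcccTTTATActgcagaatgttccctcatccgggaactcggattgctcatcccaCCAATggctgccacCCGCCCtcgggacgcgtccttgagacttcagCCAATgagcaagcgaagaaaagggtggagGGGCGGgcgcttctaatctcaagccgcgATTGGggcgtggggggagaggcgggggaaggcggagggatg
BTG2-DT: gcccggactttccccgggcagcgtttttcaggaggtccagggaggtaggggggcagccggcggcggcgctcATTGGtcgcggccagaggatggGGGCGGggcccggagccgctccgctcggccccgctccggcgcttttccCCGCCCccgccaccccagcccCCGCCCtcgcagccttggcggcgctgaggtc
CHAC1 (chr15:40953221-40953470, plus), NR4A3 (chr9:99821635-99821884, plus), KLF2 (chr19:16324576-16324825, plus) and ZFP36 (chr19:39406597-39406846, plus) are coding members that other cells switch on in stress or after a growth signal.
CHAC1: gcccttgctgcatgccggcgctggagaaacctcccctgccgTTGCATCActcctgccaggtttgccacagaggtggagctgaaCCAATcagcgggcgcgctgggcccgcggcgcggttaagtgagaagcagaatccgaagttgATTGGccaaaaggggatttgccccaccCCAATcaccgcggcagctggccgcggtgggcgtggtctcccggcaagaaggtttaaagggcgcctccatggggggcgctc
NR4A3: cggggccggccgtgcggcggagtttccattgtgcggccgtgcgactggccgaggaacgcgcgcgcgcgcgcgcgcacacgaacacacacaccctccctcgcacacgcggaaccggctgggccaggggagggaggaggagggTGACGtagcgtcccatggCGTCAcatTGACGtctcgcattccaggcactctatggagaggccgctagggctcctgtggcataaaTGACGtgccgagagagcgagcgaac
KLF2: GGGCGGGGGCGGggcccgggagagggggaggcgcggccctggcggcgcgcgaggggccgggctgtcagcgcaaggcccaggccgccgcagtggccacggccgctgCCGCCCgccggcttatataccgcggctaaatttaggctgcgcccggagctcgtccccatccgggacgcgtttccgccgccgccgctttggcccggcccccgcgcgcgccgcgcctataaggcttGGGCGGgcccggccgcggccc
ZFP36: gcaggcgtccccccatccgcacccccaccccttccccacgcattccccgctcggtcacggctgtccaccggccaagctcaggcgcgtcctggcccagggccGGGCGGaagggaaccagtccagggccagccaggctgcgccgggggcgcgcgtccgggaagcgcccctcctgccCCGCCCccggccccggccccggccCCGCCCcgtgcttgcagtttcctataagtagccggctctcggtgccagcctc

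The stretch shared by STK4-DT and STK4 was only 53 bases long and was 71.7% G or C, with GC boxes 49 and 17 bases before the STK4-DT start and an ETS site 8 bases before it. In the stretches of UCHL1-DT and H2AZ1-DT the TATA match lay far from the member, 177 and 193 bases before its start, at the end next to the coding neighbour. CHAC1, an enzyme that degrades glutathione and is induced by the integrated stress response, had an amino acid response element 209 bases before its start and CCAAT boxes at 167, 107 and 80 bases. The NR4A3 promoter held cyclic AMP half-sites 109, 91, 83 and 25 bases before the start. KLF2 had 4 GC boxes and ZFP36 had 3. A match is a description of letters and not a bound site.

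Over all 165 members with a RefSeq promoter, the 300 bases around the start (250 before and 50 after) had about the CpG and GC content of the transcribed promoters. The median number of CpG was 29 in members, 28 in transcribed promoters and 7 in silent regions, and the median share of G and C was 68.3%, 66.7% and 55.7%. A GC box (GGGCGG) stood in 82.4% of member promoters (136 of 165, 95% Wilson interval 75.9 to 87.5), against 75.9% of transcribed promoters, 37.3% of silent regions and 59.9% of all 10969 promoters. The ETS site (CCGGAAG) stood in 19.4% of member promoters, 23.2% of transcribed promoters and 13.9% of all. The TATA box (TATAAA) occurred in 4.85% of members (8 of 165), 4.14% of transcribed promoters and 16.1% of silent regions, with 8.95% over all. The CCAAT box stood in fewer members, 30.9% (interval 24.4 to 38.3), than transcribed promoters, 39.0%, and in 36.0% of all. The amino acid response element (TTGCATCA) was in 2 member promoters (1.21%) and in 0.775% of all. The cyclic AMP response element (TGACGTCA) was in 4.24% of members and 2.52% of all, and its half-site (TGACG), which the full element contains and which was added after the NR4A3 sequence had been seen, in 35.2% and 29.0%. The AP-1 site (TGANTCA) was in 4.85% of members and 5.93% of all, the NRF1 site in 3.64% and 1.86%, and the CArG box in 0 of 165 members and 1.24% of all. These shares were not tested against each other, and their intervals, like all below, cover counting error only.

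**Figure D1:**
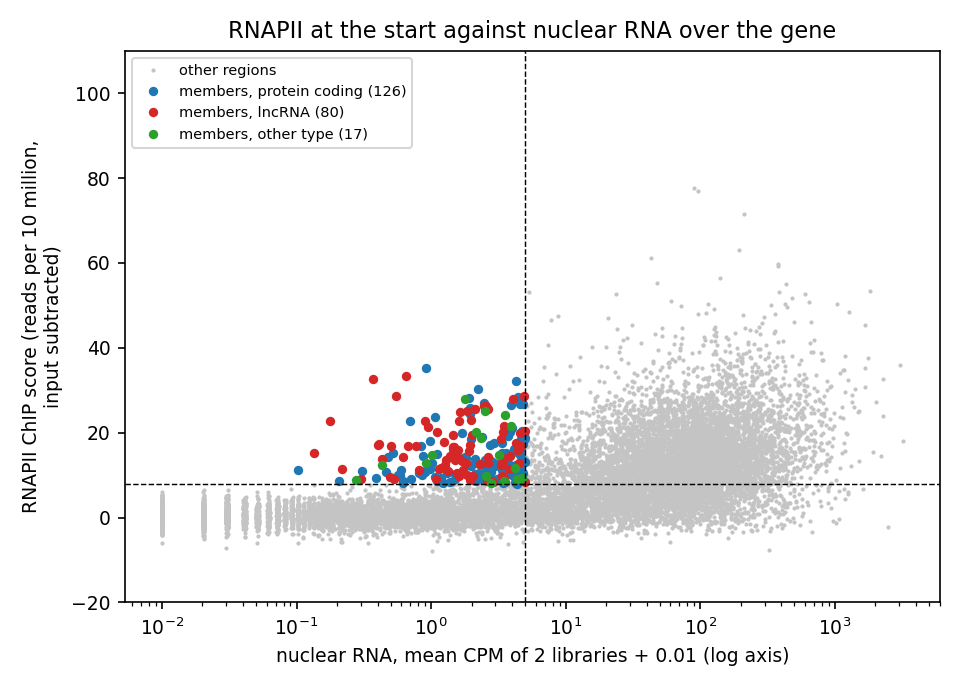
RNAPII ChIP score at the start (reads per 10000000, input subtracted) against mean nuclear RNA (CPM plus 0.01, log axis), 1 point per gene region, with dashed lines at a score of 8 and at 5 CPM. Members fill the upper left corner, and their RNAPII scores run from 8.00 to 35.2.

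The members' RNAPII scores had a median of 12.9, against 15.3 at the transcribed promoters and 0.689 in the silent regions. The members had 40 to 207 RNAPII reads at the start and 11 to 145 input reads. Nuclear RNA in members ranged from 4 to 246 reads in replicate 1 and from 4 to 293 reads in replicate 2, where 5 CPM equals 236 and 248 reads. The replicates differed by over 1.5-fold in 18 members, and 12 members reached 5 CPM in 1 of the replicates. Just inside the limits were SLC66A3, FRS3 and MST1P2 with RNAPII scores of 8.00, 8.05 and 8.09, and EIF3J-DT, ZNF414 and ODAD4 with 4.97, 4.97 and 4.96 CPM. Just outside were TIGD3, PACSIN1 and PRSS27 with scores of 7.99, 7.98 and 7.92, and PORCN, TP53TG1 and LINC00663 with 5.01, 5.05 and 5.06 CPM, so the edges are no gaps.

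WDR87 (chr19:38375472-38397317, hg19, minus strand), a coding gene of the WD repeat family, had the highest RNAPII score, 35.2 from 149 reads against 41 input reads. Its region held 43 and 45 nuclear RNA reads, while SIPA1L3, which starts 551 bases away on the other strand, held 8021 and 8230 and scored 28.1. LOH12CR2 (chr12:12508342-12510001), a lncRNA gene, followed with a score of 33.4 and with 30 and 32 RNA reads. STK4-DT (chr20:43592440-43595099) scored 32.7 with 11 and 24 RNA reads, the lowest RNA level of the leading members. C16orf95, KLLN and RGS9BP, all coding, scored 32.2, 30.4 and 28.5, with 199 and 212, 105 and 108, and 221 and 205 RNA reads. The next lncRNA genes were ATP2B1-AS1, LOC100507634 and MALINC1 with scores of 28.7, 28.5 and 27.9, of which LOC100507634 had the least RNA, 24 and 28 reads.

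By RefSeq gene type, 126 members were protein coding, 80 were lncRNA genes, 14 were transcribed pseudogenes, 1 was an antisense RNA gene and 2 matched no name. LncRNA genes were 35.9% of members (95% Wilson interval 29.9 to 42.4), against 1.92% of the transcribed promoters, 11.6% of the silent regions and 6.28% of all regions. In 31 members the name ended in -DT, RefSeq's ending for a divergent transcript, out of 86 such regions in the table. The members were short genes. Their median region length was 8.17 kb, and 5.58 kb for the lncRNA members, against 30.7 kb for the transcribed promoters. CPM does not correct for length. When the 223 regions with the lowest CPM per kb were taken among the same 5785 starts, lncRNA genes were 21.1% of them.

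Shared promoters were common among the members. A gene on the other strand that started within 1 kb, back to back, was found for 60 of the 165 members with a known strand (36.4%, 95% Wilson interval 29.4 to 43.9). The same count gave 14.2% of the transcribed promoters, 2.25% of the silent regions and 8.26% of all regions with a strand. With every RefSeq promoter on the other strand within 1 kb as a possible neighbour, in RefSeq's own build, the share of members was 53.9%. It was 34.9% of the transcribed promoters. That count did not check that the starts lay back to back. A table neighbour was found for 39 of 65 lncRNA members with a strand and for 21 of 100 coding members. The 60 pairs were 11 to 755 bases apart, with a median of 140 bases.

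The neighbour was not itself a member in 56 of the 60 cases, and these 56 neighbours had 12.9 CPM or more. The lowest of them lay under the median of 17.0 CPM over all regions. A neighbour that reaches the RNAPII limit and is not a member has 5 CPM or more by the rule. Over all 60, the neighbour's nuclear RNA had a median of 65.9 CPM, against 1.55 CPM in the members, and reached at least 10 times the member's level in 49 pairs and at least 100 times in 15. The other 4 members formed 2 pairs among themselves, each counted from both sides and named here after their values were seen. ROPN1L, a sperm tail gene, and ROPN1L-AS1 start 11 bases apart and had 1.00 and 0.423 CPM, while PCSK4, a protease of the germ line, and REEP6, a membrane-shaping protein, start 755 bases apart and had 1.50 and 2.82 CPM. RNAPII scores of member and neighbour differed little, by a median of 0.774 and by under 2 in 51 of the 60 pairs. The member was the higher in 26 pairs, the lower in 31 and equal in 3. Among the 21 pairs within 100 bases the largest gap was 2.36, and among the 13 pairs over 300 bases it was 10.7. Reads at a shared start can fall in the windows of both genes, and the width of the window is not given in the sources used here, so these scores do not split the polymerase between the strands. The strand setting of the RNA counting is not given either, so a member's few reads may include some from the other strand.

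**Figure D2:**
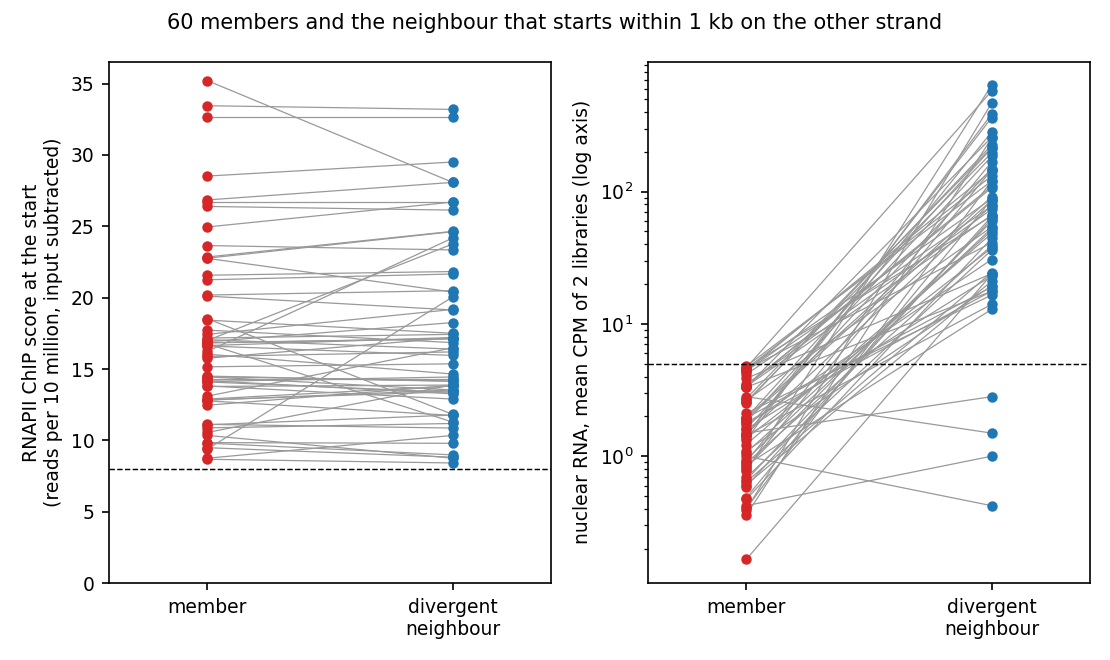
Left, RNAPII ChIP score (reads per 10000000, input subtracted) of the 60 members and of their divergent neighbours. Right, mean nuclear RNA (CPM, log axis) of the same pairs, joined by lines, with dashed lines at the limits of 8 and 5. The lines are near level on the left, while on the right the 56 neighbours that are not members lie between 12.9 and 638 CPM.

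The 6 pairs with the most RNA in the neighbour joined mostly lncRNA genes to housekeeping or highly expressed genes. UCHL1-DT (chr4:41222091-41258744) held 42 and 32 RNA reads, and UCHL1, a neuronal ubiquitin hydrolase 154 bases away, held 30753 and 30948. Their RNAPII scores were 16.9 and 18.3. H2AZ1-DT held 17 and 21 reads against 22774 and 22389 for H2AZ1, the gene of a histone variant, with scores of 17.1 and 16.4. RIBC1, a coding gene of ciliary microtubules, held 224 and 226 reads against 24887 and 30996 for SMC1A, a cohesin subunit, and scored 16.2 against 24.2. LOC100507250 lay beside NUP107, a nuclear pore gene, with 1.33 against 385 CPM and scores of 10.9 and 11.2. IL6ST-DT lay beside the cytokine receptor gene IL6ST with 1.44 against 362 CPM, and PATL2, an oocyte RNA-binding protein, beside B2M, the light chain of MHC class I, with 1.44 against 282 CPM. The pairs were picked for the neighbour's RNA, and their RNAPII scores differed by 8 units or less.

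Genes known for rapid induction formed a small group. Of 35 immediate early genes in the table, 19 had an RNAPII score of 8 or more and 4 were members, 11.4%, against 1.55% of all regions. KLF2, a transcription factor of endothelium and quiescent lymphocytes, scored 9.07 with 64 and 80 RNA reads. NR4A2 and NR4A3, orphan nuclear receptors, scored 12.8 and 10.8 with 159 and 203 reads and with 170 and 222 reads. ZFP36, which destabilises AU-rich mRNAs, scored 17.6 with 128 and 200 reads. ZFP36 varied most between the replicates, with 2.71 and 4.03 CPM. Of 12 genes of the unfolded protein and integrated stress response, CHAC1 was the only member, with a score of 20.0 and 85 and 78 reads. The lists of heat shock (15 genes in the table), p53 (11), NF-kB and inflammatory (16), interferon (10), hypoxia (6), replication histone (3), snoRNA host (2) and microRNA host genes (6) held 0 members. The RNAPII score was reached by 8 of the 15 heat shock genes and 9 of the 11 p53 genes, all with 5 CPM or more, and by 1 of the 16 NF-kB and inflammatory genes, of which 14 were under 5 CPM.

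Some further inducible genes outside those lists were picked after their values had been seen. SNAI1, a repressor of epithelial genes, had an RNAPII score of 27.1 with 114 and 124 RNA reads. GADD45G, a stress sensor, scored 13.5 with 114 and 127 reads, and PDK4, a metabolic kinase induced by fasting, scored 9.80 with 219 and 192 reads. Also picked in that way were 3 lncRNA members named as divergent transcripts of inducible genes. BTG2-DT scored 22.8 with only 9 and 7 reads, next to BTG2, an antiproliferative p53 target, with 1098 and 1198 reads and a score of 24.6. REL-DT scored 14.1 with 78 and 77 reads and JUN-DT 14.0 with 171 and 153. Of 152 developmental transcription factors in the table, DLX4, FOXI3, OTX1 and SOX18, also named after the fact, were members (2.63%), of 437 zinc finger genes 7 were (1.60%), and of 21 Polycomb genes 0.

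H3K4me3 marked nearly every member. Its median score was 43.7 (95% order-statistic interval 40.6 to 48.7), against 56.6 at the transcribed promoters and -0.170 in the silent regions. H3K4me3 was at least 2 times the input at 221 of 223 members (99.1%), where 62.5% of all 14432 regions reached that level, and 99.9% of the transcribed promoters did. At 4 times the input the counts were 93.3% of members and 57.4% of all regions. The interval of reads over input lay above 2 at 213 members. Members with a divergent neighbour had a median of 57.3 and those with a strand and no neighbour 39.5. H3K4me3 reads at a shared start can also fall in the windows of both genes. The member was above its neighbour in H3K4me3 in 13 of the 60 pairs. LncRNA members had 52.7 and coding members 40.0.

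The highest H3K4me3 scores among members were 153 at LINC00910, 141 at WDR87, 122 at RGS9BP and 110 at VSTM2B-DT. LINC00910, a long intergenic RNA gene, also had the most input reads of all members, 145 where the median was 22. Its H3K4me3 ratio to input was under the members' median of 8.62, so its rank holds for the score only. At the other end TEX19, a germ line gene, scored 1.38, or 1.11 times the input with an interval of 0.745 to 1.67. SBSN, an epidermal secreted protein, scored 4.54 and 1.77 times the input. FAM53A scored 6.19. TEX19 and SBSN were thus the 2 members under 2 times the input, while their RNAPII scores were 8.77 and 10.7.

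The Polycomb mark was rare. H3K27me3 was at least 2 times the input at 0.897% of members, where 1.86% of all regions were called, 0.0360% of transcribed promoters and 3.92% of silent regions. Its ratio to input was under 1 at 193 of 223 members, with a median of 0.704. The 2 members past that level were VSTM2B-DT, with a ratio of 2.67 (exact binomial interval 1.72 to 4.25, 83 reads against 28 of input), and NR4A2, with 2.13 (1.02 to 4.77, 26 reads against 11). LINC00612, SBSN and BTK, a kinase of B cells, followed with scores of 4.33, 4.28 and 3.84, where VSTM2B-DT had 12.0. EZH2 reached 2 times the input at 1 member (0.448%, where 2.06% of all regions did), CLIC3, an ion channel protein, with 2.13 (1.17 to 4.01). The next EZH2 scores were 4.99 at VSTM2B-DT, 4.25 at SBSN and 3.92 at BTK, so VSTM2B-DT, SBSN and BTK stood high in both. Over all starts the median was 18 reads for H3K27me3 and 20 for EZH2, so single ratios are wide.

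PHC1 ChIP was near the input at members. The authors' score, which joins both replicates and so has no SD, had a median of 0.224 over members (interval -0.282 to 0.530), 0.0555 over transcribed promoters and 0.216 over silent regions. It was above 0 at 53.4% of members and at least 2 times the input at 0 of 223, where 0.561% of all regions reached that level. The highest scores were 4.92 at SBSN, 3.92 at PPP1R14A, an inhibitor of myosin phosphatase, 3.66 at HSPB6, a small heat shock protein of muscle, 3.44 at MST1P2, a pseudogene whose reads may be shared with near-identical copies, 3.27 at ATP1B2, a sodium pump subunit, and 3.26 at ACTN1-DT. The lowest were -7.03 at RGS9BP, -4.28 at SPAG4, -3.97 at GATA3-AS1 and -3.86 at LINC00910. Each of these 4 had 37 or more input reads, above the members' median of 22. SBSN, with the most PHC1 and little H3K4me3, was also among the highest in H3K27me3 and EZH2.

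PHC1 without the FCS part gave more signal than PHC1 at most members, as it did elsewhere. The dFCS score had a median of 1.54 over members and exceeded the PHC1 score at 191 of 223 (85.7%), against 83.4% of transcribed promoters and 79.4% of all regions. Before input subtraction, the log2 ratio of dFCS over PHC1 had a median of 0.34 over members (interval 0.27 to 0.38), 0.28 over transcribed promoters, 0.21 over silent regions and 0.25 over all. It ran from -0.62 to 1.03 over members. At least 2 times the input was reached by 5 members (2.24%), where 3.42% of all regions were called. At SBSN the dFCS score was 8.91 and at HSPB6 7.32, while at MST1P2 it was 0.901 and at ACTN1-DT 1.45, below their PHC1 scores. These are joined columns with no replicate to set the differences against.

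**Figure D3:**
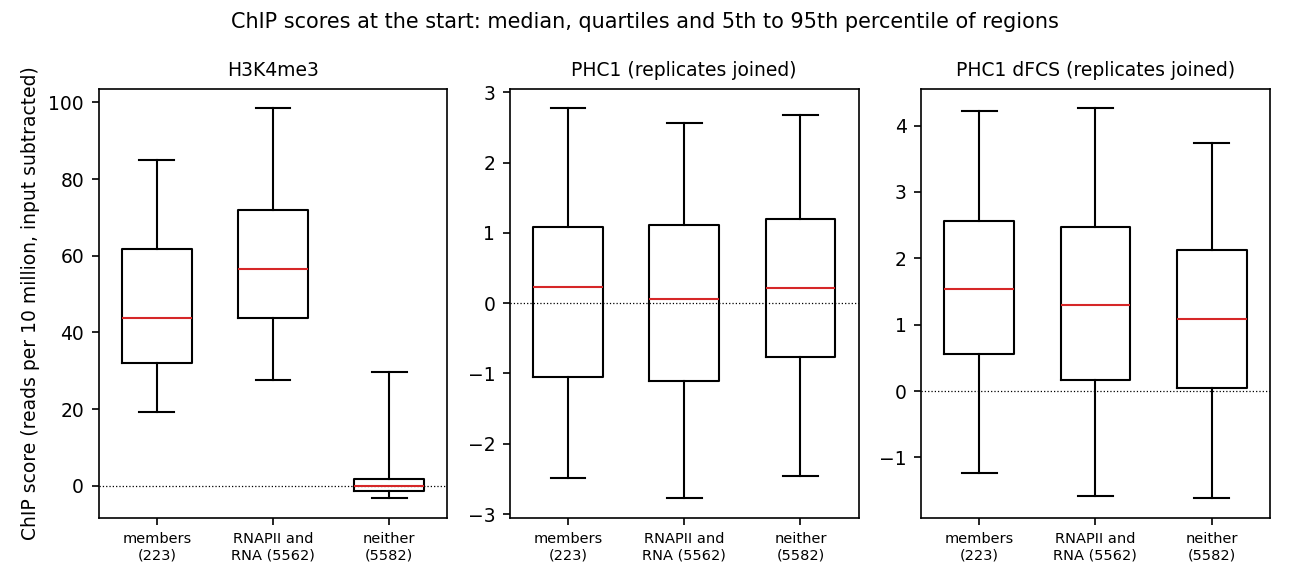
ChIP scores (reads per 10000000, input subtracted) of H3K4me3, PHC1 and PHC1 dFCS at the starts of members, transcribed promoters (RNAPII and RNA) and silent regions (neither), as median, quartiles and the 5th to 95th percentile of regions. H3K4me3 medians were 43.7, 56.6 and -0.170, while the PHC1 medians were all between 0.0555 and 0.224.

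PHC1 PAR-CLIP clusters were found in a smaller share of members than of all regions, and RNAPII 4SU clusters in about the same share. Clusters on either strand of the region were counted, so these shares and the coverage can include RNA from the strand opposite to the gene. A PHC1 cluster in both libraries was present in 46.2% of members (103 of 223, 95% Wilson interval 39.8 to 52.7), against 95.9% of transcribed promoters, 37.3% of silent regions and 71.0% of all. With 1 library at a time the share was 55.6% and 56.5%. An RNAPII cluster was present in 75.8% of members with 4SU and in 73.4% of all regions (99.7% of transcribed promoters and 34.2% of silent regions). With the much smaller 6SG library it was 16.1% of members and 45.4% of all (75.1% and 10.4%). The members' median summed coverage on a per-million scale was 0.673 for PHC1, as the mean of both libraries, and 0.948 for RNAPII with 4SU, against 54.9 and 60.2 at transcribed promoters. A 4SU cluster with no PHC1 cluster occurred in 49 members (22.0%), in 1.46% of transcribed promoters and in 7.02% of silent regions. Summed coverage grows with gene length, and for the 223 starts with the least RNA per kb the share with PHC1 clusters in both libraries was 78.0%.

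Among all members with a strand, PHC1 clusters near the start lay more often on the other strand than on the gene's own. This came with the members that had a divergent neighbour, while those without had about even shares. It is a description with no test. Within 1 kb of the start, PHC1 clusters on the gene's own strand were found at 14.5% and 10.3% of the 165 members with a strand in replicates 1 and 2, and clusters on the other strand at 32.1% and 21.8%. At the transcribed promoters the order was the reverse, 55.3% and 46.0% on the own strand and 17.8% and 14.5% on the other, and over all regions it was 31.6% and 26.3% against 11.2% and 9.16%. Members with a divergent neighbour had own-strand PHC1 clusters in 5.00% of cases in both replicates and other-strand clusters in 48.3% and 36.7%. Members without one had 20.0% and 13.3% on the own strand, and 22.9% and 13.3% on the other. The window reached 1 kb to each side, and the 60 neighbours started 11 to 755 bases away. It thus takes in the first bases of the neighbour's own RNA, which lies on the other strand. Which gene's RNA a cluster came from was not tested. With RNAPII 4SU, own-strand clusters stood at 61.7% of members with a neighbour and at 49.5% of those without, and other-strand clusters at 91.7% and 44.8%. Over all 165 members RNAPII 4SU clusters stood on the own strand at 53.9% and on the other at 61.8%, against 90.0% and 58.9% of transcribed promoters and 52.8% and 31.3% of all regions. The members' own-strand 4SU share was thus near that of all regions, and their other-strand share near that of the transcribed promoters.

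Counted by cluster rather than by gene, 29.8% of 168 and 28.9% of 97 PHC1 clusters near member starts lay on the gene's strand, against 80.4% in each replicate at transcribed promoters. For RNAPII 4SU it was 37.4% of 430 clusters against 71.4%. Across the whole member regions, 48.7% and 51.3% of PHC1 clusters and 75.6% of RNAPII 4SU clusters lay on the gene's strand, against 95.2%, 95.4% and 97.0%. The members' PHC1 shares rest on 433 and 417 clusters. CATSPERD alone held 97 and 109 of these, most of them on the other strand, so 1 region weighs heavily in them. At UCHL1-DT, PHC1 had 0 own-strand and 4 and 7 other-strand clusters near the start, and RNAPII 4SU 1 and 9. H2AZ1-DT and RIBC1 likewise had 0 own-strand PHC1 clusters in both libraries, with 5 and 2 and with 6 and 5 on the other strand. KLLN had 0 own-strand PHC1 clusters and 7 and 3 on the other strand. ZFP36 went the other way, with 4 and 1 own-strand clusters and 0 on the other, and JUN-DT had 3 own-strand RNAPII 4SU clusters and 0 PHC1 clusters on either strand.

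**Figure D4:**
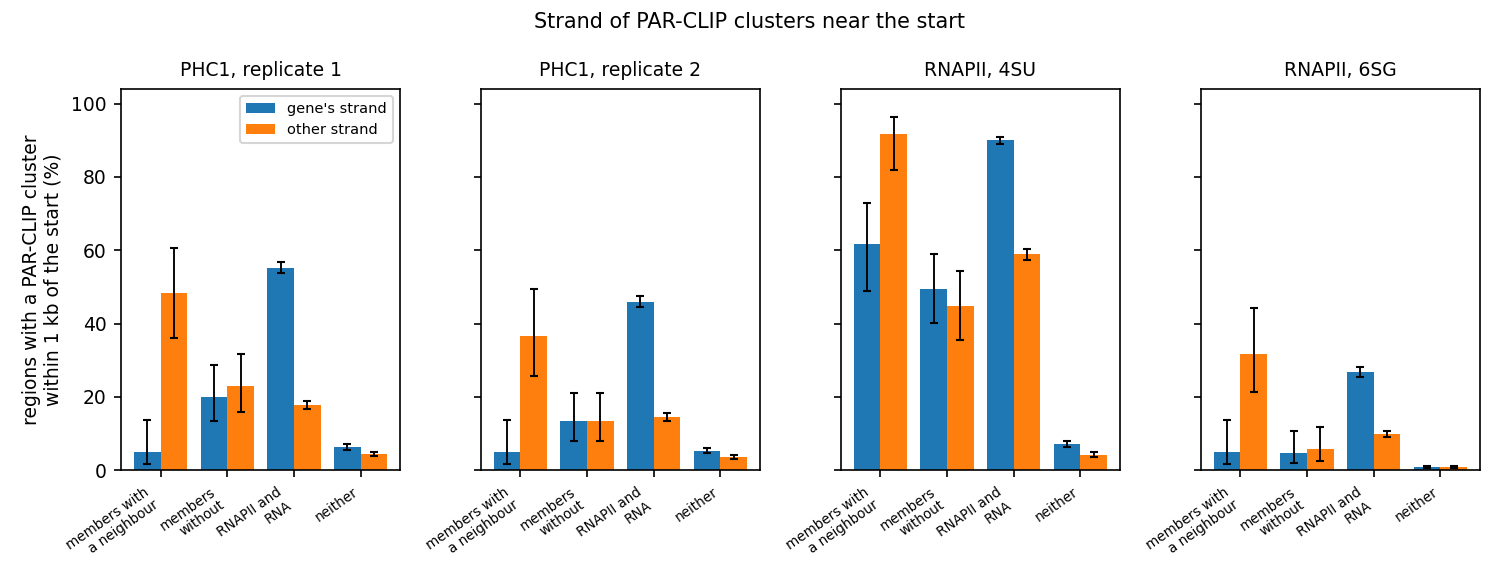
Share of regions (percent, with 95% Wilson intervals) that have a PAR-CLIP cluster within 1 kb of the start on the gene's strand or on the other strand, in each of 4 libraries, for the 60 members with a divergent neighbour, the 105 without, the transcribed promoters and the silent regions. In PHC1 replicate 1 the own-strand share is 5.00% at members with a neighbour and 55.3% at transcribed promoters.

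PHC1 was compared with RNAPII PAR-CLIP on summed coverage per gene with limma, in a fit across all regions where no fewer than 2 libraries had a per-million coverage of 5 or more, 8435 in number. Only 41 members passed that filter, and 12 of these passed through both PHC1 libraries alone and 3 through both RNAPII libraries alone, so they had to differ and counts over the 41 describe only the passing regions. At an adjusted p under 0.05 limma called 0 members and 0 regions in all, 0% in each direction. At an unadjusted p under 0.05 it gave 17 members higher in PHC1, where 14.2% of all tested regions were, and 2 lower, where 7.69% were. The median log2 fold change was 1.89 over the 41 members and 0.59 over all tested regions. The RNAPII libraries, made with different nucleosides, had a robust SD of 1.41 log2 units against 0.244 for PHC1.

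The calls depended on which RNAPII libraries were in the fit. When 4SU alone served as the control, which was assumed to vary like the PHC1 pair, limma tested 34 members and called 25 higher in PHC1 and 3 lower at an adjusted p under 0.05, where 33.7% and 28% of 8037 regions were called. Of the 34, 18 had under 5 with 4SU and passed only through the PHC1 pair, so they had to be higher, and all 18 were called. Among the 16 with 5 or more in 4SU, 7 were called higher. The spread of the lone 4SU control cannot be measured. The wider RNAPII spread given above is between libraries of different nucleosides, so the assumed spread was not tested. On cluster numbers, edgeR called 12 of 41 members higher and 0 lower (18% and 14.7% of 8617 regions), and DESeq2 called 0 members (0.0116% each way). The filter on cluster numbers could also be met by the PHC1 pair alone. Without the 4SU library, 6SG was the lone control, and the limma calls over members and over all regions both changed.

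CATSPERD (chr19:5720688-5778742, plus strand), a subunit of the sperm calcium channel, had the most PHC1 coverage of the members, a per-million coverage of 288 and 318 in the PHC1 libraries, against 8.25 with 4SU and 23.8 with 6SG. Its log2 fold change was 4.33 ± 0.63 (SE), with a limma adjusted p of 0.147, and 5.03 against 4SU alone, with an adjusted p of 2.25e-20. Both PHC1 values were above both RNAPII values, in a gene named for its high PHC1 coverage and fold change. Of its 97 and 109 PHC1 clusters, 65 and 73 lay on the strand opposite to the gene. It is also 1 of the 60 with a neighbour, LONP1, a mitochondrial protease, with 215 CPM. FAM53A (chr4:1641608-1685988, minus) had 53.6 and 44.1 for PHC1, 3.45 with 4SU and was listed at 0 with 6SG, with a log2 fold change of 4.55 ± 1.15 and a limma adjusted p of 0.170. Here 18 of 23 and 20 of 23 PHC1 clusters lay on the gene's strand. FAM53A was among the lowest members in H3K4me3.

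KRABD2, a KRAB domain gene, had 251 and 200 for PHC1, 28.4 with 4SU and 78.5 with 6SG. Its PHC1 clusters were on its own strand but for 1 in each library, and 61.1% of the coverage in replicate 1 came from 1 cluster, against 30.5% in replicate 2. ODAD4, a docking protein of ciliary dynein, had 117 and 141 for PHC1 against 21.1 and 11.0, and PLA2G4C, a phospholipase, 57.1 and 69.7 against 5.27 and 17.5. C1QL4, a synaptic C1q-like protein, had 40.3 and 62.5 against 3.32 and 10.7. In these 4 genes both PHC1 libraries were above both RNAPII libraries. They were named for their high PHC1 coverage, which favours that order, and its share over all tested regions is not given here. ZNF34, a zinc finger gene, had 46.5 and 67.3 against 10.3 and 57.5, and LINC00910 had 153 and 85.0 against 129 and 61.1, so there the groups overlapped. HPD, an enzyme of tyrosine breakdown, had 26.3 and 31.6 against 6.22 with 4SU, and 18 of its 19 clusters in each PHC1 library lay on the other strand. WDR87, with the most RNAPII of all members, had 8.02 and 8.75 for PHC1 and was listed at 0 in both RNAPII libraries. LINC00466 and FAM27B had log2 fold changes of 3.16 and 3.08, from 10.4 and 14.8 and from 13.1 and 11.3 for PHC1. FAM53A, WDR87, LINC00466 and FAM27B passed the filter through the PHC1 libraries alone, so their fold changes had to be positive. FAM27B too belongs to a family of near-identical copies.

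The lowest log2 fold changes of the 41 belonged to members with more RNAPII than PHC1 coverage. LINC02453 had 35.5 and 22.9 for PHC1, 86.4 with 4SU and 1025 with 6SG, and 1 cluster held 98.5% of the 4SU and 100% of the 6SG coverage. Its log2 fold change was -3.34 ± 1.34, with a limma adjusted p of 0.257. ZNF414 was listed at 0 in both PHC1 libraries and had 6.58 and 10.6 with 4SU and 6SG. CAMK2N1, an inhibitor of the kinase CaMKII, had 0.746 and 0.845 for PHC1 against 7.16 and 16.6. LINC00632 had 1.94 and 5.20 against 19.1 and 34.9. ZC2HC1C had 1.22 and 2.68 against 8.03 and 19.3. In all 5 regions the PHC1 values lay below the RNAPII values, an order that the choice by lowest fold change favours. ZNF414, CAMK2N1 and ZC2HC1C passed the filter through the RNAPII libraries alone, so they had to be lower in PHC1. Each of the 5 had 1 cluster in the 6SG library. ZFP36 had 7.96 and 2.70 against 8.78 and 17.0, with a log2 fold change of -1.20 ± 1.04.

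Of the 5 listed induced members, CHAC1 and ZFP36 had PAR-CLIP coverage above the members' medians in PHC1 and RNAPII 4SU, and KLF2, NR4A2 and NR4A3 had no PHC1 cluster. CHAC1 had 8.04 and 4.64 for PHC1, 20.0 with 4SU and none listed with 6SG. Against 4SU alone its log2 fold change was -1.55 ± 0.51, with a limma adjusted p of 0.00776, while against both RNAPII libraries it was 0.64 ± 1.76, with an adjusted p of 0.835. Its 10 and 5 PHC1 clusters all lay on its own strand. For KLF2, NR4A2 and NR4A3, listed at 0 in both PHC1 libraries, RNAPII 4SU gave 0, 5.12 and 1.08. SNAI1 had 0 for PHC1 and 2.64 with 4SU.

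**Figure D5:**
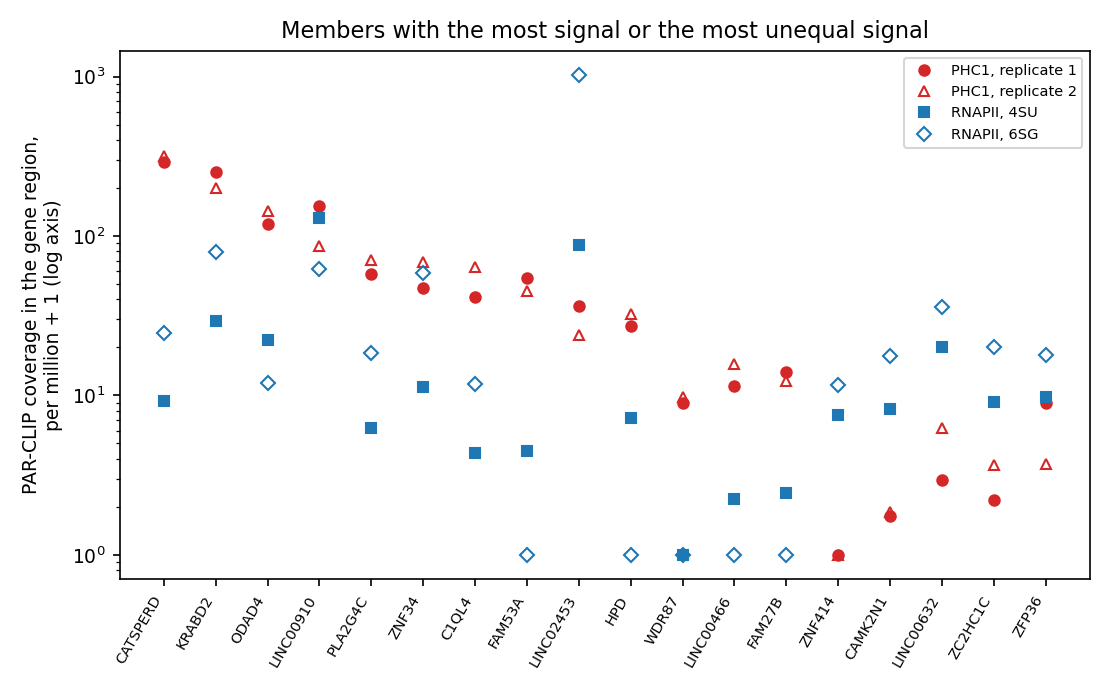
Summed PAR-CLIP coverage on the per-million scale plus 1 (log axis) in each of 4 libraries for the members with the most signal or with the largest difference between PHC1 and RNAPII. At CATSPERD both PHC1 values, 288 and 318, lie above 8.25 and 23.8 for RNAPII, while at LINC02453 the 6SG value of 1025 lies above the rest.

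The RNA libraries held 47187882 and 49626658 reads over all regions, and the single ChIP libraries 32542619 to 43071641 reads in all. Of 10 listed HEK293-like markers 8 were in the table and 6 were above 5 CPM in both libraries, among them CDH2 at 422 and 425 CPM and NEFL at 141 and 142 CPM, while the summed levels of 5 hepatocyte, 4 fibroblast, 5 blood and 2 keratinocyte markers were 0.509 and 0.383, 1.89 and 2.16, 0.890 and 0.927, and 0.0212 and 0 CPM. PAX2 was at 7.42 and 8.36 CPM, LHX1 at 4.47 and 4.09, and NEFM at 0.381 and 0.121. None of these markers was a member. Fewer transcripts per cell and fewer cells that transcribe a gene cannot be told apart in such bulk libraries.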

How the data were processed

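PAR-CLIP, nuclear RNA-seq and ChIP-seq of HEK293T T-REx cells were used. Per the submitters' processing notes, reads were aligned to hg19, with Bowtie 0.12.7 named for PAR-CLIP, TopHat2 2.0.11 for RNA and Bowtie2 2.2.3 for ChIP. The cluster caller, the read counter, its strand setting and the window at the start are not given in the sources used here. The deposited RNA table holds counts per gene, and 1 further value column was not used. The ChIP scores deposited by the authors are reads per 10000000 of the library minus the input, and whole reads were recovered from them for the single-library columns within a tolerance of 1e-08. The PHC1 and PHC1 dFCS scores join replicates and stayed whole. The deposited PAR-CLIP signal is the mean coverage per base of a cluster.

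CPM used column totals. Clusters were summed per region by midpoint, on either strand, and 0 regions of the table overlapped. Symbols were matched for 14378 of 14432 regions, and a strand for 10969 (165 members), from RefSeq (GRCh38.p14). A strand came only with a promoter entry. Summed coverage was scaled by TMM (edgeR 4.0.16) and tested with limma 3.58.1 (trend, robust) on log2 of the per-million value plus 1, 2-sided, with Benjamini-Hochberg adjustment. edgeR and DESeq2 1.42.0 were run on cluster numbers, for regions with 3 or more clusters in each of at least 2 libraries. The scripts were tested on simulated data. The dFCS ratio used no pseudocount, since no value before subtraction was 0. The replicate libraries are not stated to be separate cultures, so p-values measure the spread between libraries only.

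Named members were the extremes of each measure (8 of RNAPII, 5 lncRNA, 6 pairs, 6 and 4 of PHC1, 4 and 4 of H3K4me3, 4 of H3K27me3 and of EZH2, 8 and 4 of PAR-CLIP, 6 and 6 of the fold change, 3 on each side of a limit) and every member of the induced gene lists. A member that the rule names is not reported here. Members and lists were chosen with earlier results of these data known. Other limits, neighbours, filters and left-out libraries were tried as alternatives.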

Additional observations from a re-analysis of the deposited data

How the results depend on the processing

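Of 79 alternatives tried on values of the members, 49 left the value within its interval (counts within 1.5 times). The direction turned in 0, but most were on counts or shares, which cannot change sign, so this says nothing about those. With an RNAPII score of 6 or more, 327 regions qualified, lncRNA genes were 28.1%, divergent neighbours 28.2%, median H3K4me3 40.0, H3K4me3 at 2 times the input 96.0% and RNAPII 4SU clusters 68.8%. With 12 or more, there were 129 members, with 44.2% lncRNA genes, 51.0% divergent neighbours, a median H3K4me3 of 51.8, 100% at 2 times the input and 81.4% with 4SU clusters. Under 2 CPM the values were 99 members, 49.5% lncRNA genes, 49.4% with neighbours, 37.4% with PHC1 clusters in both libraries and 60.6% with 4SU clusters. Under 10 CPM they were 413 members, 28.3% lncRNA genes, 55.9% with PHC1 and 83.8% with 4SU clusters. With RNA per kb, lncRNA genes were 21.1%, PHC1 clusters 78.0% and 4SU clusters 85.2%. With no other start allowed within 1 kb, 105 members had 24.8% lncRNA genes and a median H3K4me3 of 39.5. At 4 times the input 93.3% of members had H3K4me3. With RefSeq neighbours, added after seeing the data, 53.9% had a start on the other strand within 1 kb, back to back or not. Leaving out an RNA replicate gave 220 and 224 members and 45.5% to 46.4% with PHC1 clusters. With a single PHC1 library, also added later, 55.6% to 56.5% had a cluster.

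PHC1 against RNAPII gave 0 calls in limma under other pseudocounts, filters, scaling or strand. Against 4SU alone limma called 25 members higher and 3 lower (2707 and 2248 regions), edgeR on clusters 12 and 0 members (1548 and 1263 regions) and DESeq2 0 members (1 and 1 region). Leaving out 1 PAR-CLIP library gave 0 to 25 members higher, 0 to 6 lower, and 0 to 4333 and 0 to 2248 regions, with 4 regions higher without PHC1 replicate 2. Counting clusters for every region that holds their midpoint gave the same assignment, since no regions overlap. No paired analysis was possible because the RNAPII PAR-CLIP libraries share only replicate number 1 with PHC1 and the PHC1 ChIP replicates are joined in 1 column. Median reads per start were 18 to 34 for input, EZH2, H3K27me3 and RNAPII ChIP, so ratios at single starts are wide.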
